A study of Rattus norvegicus with 6 samples.

Results

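The genes described here are 8 genes of the MHC class II route of antigen presentation in the rat. They were chosen by gene symbol, and all 8 were found among the 17051 genes listed for each kidney. RT1-Ba and RT1-Bb encode the alpha and beta chains of the class II molecule RT1-B, and RT1-Da and RT1-Db1 those of RT1-D. RT1-DMa and RT1-DMb encode the chains of the peptide exchange factor DM, Cd74 encodes the invariant chain, and Ciita encodes the transactivator of class II genes. RNA was sequenced from kidney tissue of 6 male Sprague Dawley rats, 1 library per rat, all without liver disease. The 3 rats of the AL group (rats 61, 71 and 88) had standard chow ad libitum, labelled normal diet. The 3 rats of the HD group (rats 64, 67 and 69) had 3 g per kg body weight per day of an amino acid mixture added to the chow, labelled hyperammonemic diet, and both diets lasted 7 days. The comparison asks whether class II RNA in the kidney differs between the diets.

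Class II molecules display peptides from engulfed proteins to CD4+ T cells. The alpha and beta chains assemble around the invariant chain, which blocks the groove until cathepsins trim it, and DM then exchanges its last fragment for an antigenic peptide. In the kidney, class II is carried mainly by the dendritic cells and macrophages of the interstitium, and interferon gamma can induce it on tubular and endothelial cells through Ciita. Ciita does not bind DNA itself but docks on the factors RFX, CREB and NF-Y, which sit on a conserved X box and Y box upstream of class II genes.

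The promoters of 5 class II chains are given here because Ciita acts on such upstream boxes. RefSeq promoter sequences (build GRCr8) were matched for 6 of the 8 genes, all except RT1-DMb and Ciita. The 120 bases that end at the base before the transcription start are printed 5′ to 3′ on the strand of the gene. Capitals mark ACNGATG, a core of the X box chosen after these sequences were seen, and ATTGG, the inverted CCAAT of the Y box, each on both strands.
RT1-Ba (chr20:4576937-4577056, plus strand): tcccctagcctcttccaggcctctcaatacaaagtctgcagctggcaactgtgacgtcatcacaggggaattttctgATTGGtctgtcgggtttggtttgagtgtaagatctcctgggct
RT1-Bb (chr20:4604119-4604238, minus strand): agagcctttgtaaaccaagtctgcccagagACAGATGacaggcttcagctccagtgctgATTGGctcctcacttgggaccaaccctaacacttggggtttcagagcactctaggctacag
RT1-Da (chr20:4515295-4515414, plus strand): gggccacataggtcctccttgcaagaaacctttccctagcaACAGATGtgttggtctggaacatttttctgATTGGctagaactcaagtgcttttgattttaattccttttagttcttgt
RT1-Db1 (chr20:4560163-4560282, minus strand): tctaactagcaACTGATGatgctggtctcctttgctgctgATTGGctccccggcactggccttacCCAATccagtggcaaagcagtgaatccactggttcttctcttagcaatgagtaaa
RT1-DMa (chr20:4712336-4712455, minus strand): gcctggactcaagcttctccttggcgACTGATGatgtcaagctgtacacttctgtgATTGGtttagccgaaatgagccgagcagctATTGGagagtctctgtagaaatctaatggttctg

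RT1-Bb, RT1-Da, RT1-Db1 and RT1-DMa carried ACNGATG followed by ATTGG on the gene strand, with a gap of 22 or 23 bases. Such a pair with a gap of 10 to 40 bases was found in 43 of 33469 rat promoters (0.128%), searched over the 250 bases before the start. These promoters include those of the class II genes. Since ACNGATG was chosen after the class II sequences were seen, the share cannot serve as a test of enrichment. RT1-Ba held ATTGG without ACNGATG, and in Cd74 a CCAAT lay 189 bases before the start. Other forms of the X box were not searched, so a missing ACNGATG does not mean that the gene lacks an X box. Over all promoters ATTGG was present in 34% and ACNGATG in 8.55%. A match in the letters is a description of the window and not a measured binding site.

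In build rn5, used for the counts, the 4 chains of RT1-B and RT1-D lie on chromosome 20 between 6123272 and 6212754. RT1-Bb (6 exons) and RT1-Ba (5 exons) are neighbours there, as are RT1-Db1 (6 exons) and RT1-Da (5 exons). The build lists RT1-DMa and RT1-DMb at 2 places on chromosome 20, near 6015060 and near 7302036 for RT1-DMa. The estimated counts of both copies were the same in every rat, for example 142.5 each for RT1-DMb in rat 61, and the copies were summed. The posterior mean counts differed between the copies, at 119 and 166 for RT1-DMb in rat 61, so the copies were not told apart. Cd74 lies on chromosome 18 from 55305873 to 55315246 and Ciita on chromosome 10 from 4036668 to 4083966. Class II chains are among the most polymorphic genes of mammals and Sprague Dawley rats are outbred. The alleles of these rats were not examined, so the levels of the RT1-B and RT1-D chains are counts against the chains of the reference.

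The libraries held between 12499945 estimated counts in rat 64 and 30466461 in rat 69. Of 8 kidney epithelial markers all were detected in every rat, with Slc5a2 lowest at 0.831 to 2.15 CPM (normalized counts scaled to a common library size), Lrp2 between 1791 and 2570 CPM and Umod between 2721 and 4061 CPM. All 8 class II genes passed the minimum of 30 counts in at least 1 rat, and 11553 genes were tested in all. In the quasi-likelihood test of edgeR, 0 of the 11553 genes (0%) passed the adjusted threshold of 0.05. An unadjusted *P* value below 0.05 was found for 1224 genes (10.6%), 5.94% lower and 4.66% higher in HD. DESeq2 gave 182 genes (1.58%) and 1325 genes (11.5%), respectively.

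The class II transcripts were present in every kidney and were dominated by Cd74. On the length-corrected TPM scale the sum of the 8 genes was 474, 809 and 484 for rats 61, 71 and 88. For rats 64, 67 and 69 the sum was 396, 259 and 665, so the diets overlapped. Cd74 made up between 51.0% and 59.8% of this sum. The mean TPM over the 6 rats was 280 for Cd74, 62.4 for RT1-Da, 58.3 for RT1-Db1, 39.99 for RT1-Ba, 31.4 for RT1-Bb, 27.7 for RT1-DMb, 13.3 for RT1-DMa and 0.960 for Ciita. In these means the invariant chain stood above the presenting chains, then DM, then the transactivator. Within single rats the step from presenting chains to DM held only in rat 61. RT1-DMb (32.8 and 17.4 TPM) was above RT1-Bb (8.69 and 4.91 TPM) in rats 71 and 88. In rats 64, 67 and 69 RT1-DMb (23.8, 17.9 and 48.6 TPM) was above RT1-Ba (17.9, 14.3 and 44.2 TPM). Over the rats, the ranges of neighbours in this order overlapped from RT1-Da down to RT1-DMa, whereas Cd74 in every rat was above the highest RT1-Da and Ciita below the lowest RT1-DMa.

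No class II gene separated the diets. Of the 8 genes, 1 (RT1-Da) had an unadjusted *P* value below 0.05, a share near that of all tested genes (10.6%), and in 0 of 8 were the groups apart (14.3% of all tested genes, 7.01% with HD below AL and 7.25% with HD above). The 1 was 0 without rat 71, 64 or 67 and 3 without rat 61 or 69. With DESeq2, 3 of the 8 (RT1-Da, RT1-Ba and RT1-Db1, all lower in HD) had an unadjusted *P* value below 0.05, beside 11.5% of all genes, and none passed the adjusted threshold. The log2 fold change was below 0 in 6 genes and above 0 in 2, with a median of -0.23 beside 0.0067 over all tested genes. Without rat 71 or without rat 67 the median was 0.025 or 0.018, and without rat 69 it was -0.62. Fewer cells that carry class II and less class II RNA per cell cannot be told apart in whole tissue.

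**Figure D1:**
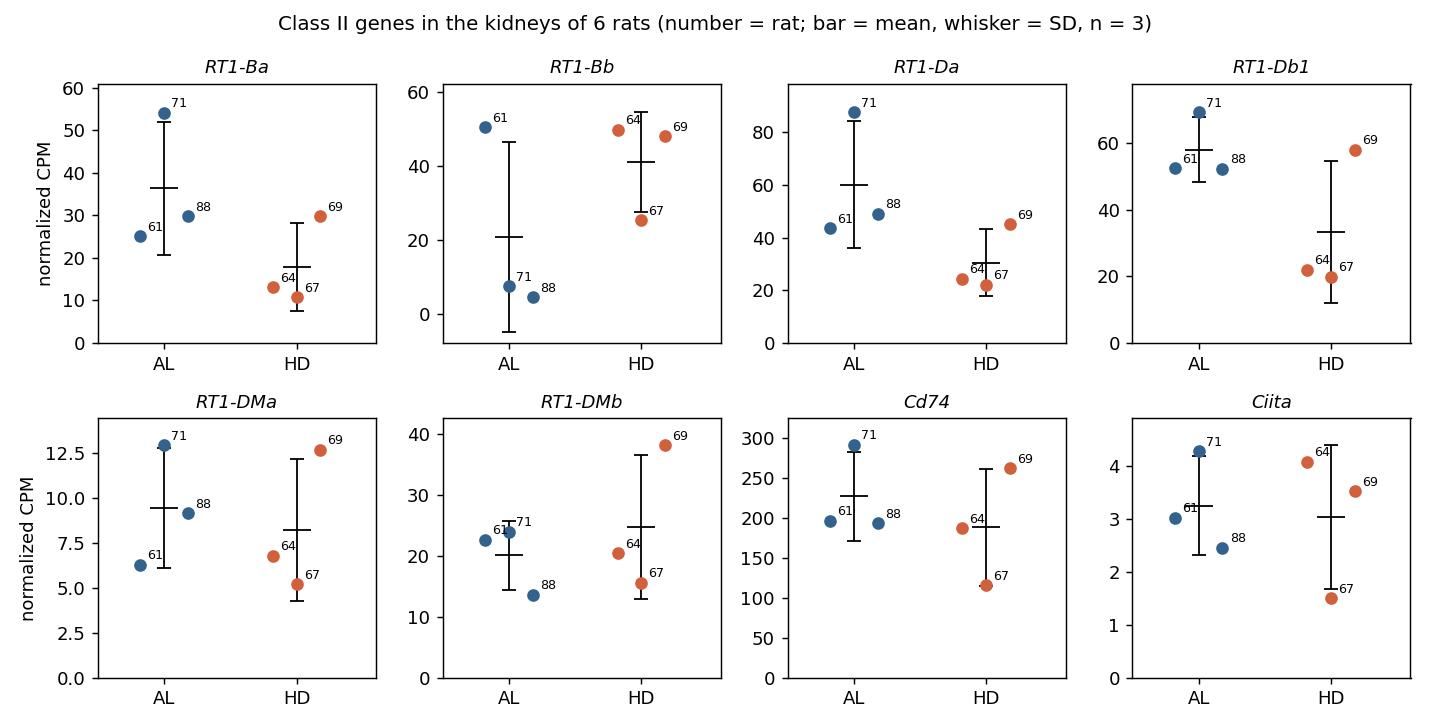
Normalized CPM of the 8 class II genes (y axis, a scale of its own in each panel) in the 3 rats of the AL group and the 3 rats of the HD group (x axis). Points are rats with their numbers, bars are group means and whiskers are SDs. Rat 71 is highest in 6 of the 8 genes and rat 67 lowest in 6, and RT1-Bb is the gene in which rats 71 and 88 sit far below the other rats.

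RT1-Da, the alpha chain of RT1-D, was at 43.7, 87.7 and 49.1 CPM in the AL rats 61, 71 and 88 and at 24.4, 22.1 and 45.05 CPM in the HD rats 64, 67 and 69. Rats 64 and 67 were below every AL rat, and rat 69 stood just above rat 61. Its log2 fold change was -0.98 (standard error, SE, 0.35, 95% interval -1.80 to -0.15), with an adjusted *P* value of 0.409 in edgeR and 0.135 in DESeq2. It ranged from -1.37 to -0.60 with each rat left out in turn.

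RT1-Db1, the partner of RT1-Da, was at 52.5, 69.2 and 52.3 CPM in the AL rats and at 22.0, 19.9 and 58.0 CPM in rats 64, 67 and 69. Rat 69 again lay inside the AL range and the other HD rats lay below it. For this chain the log2 fold change was -0.79 (SE 0.40, 95% interval -1.72 to 0.14, adjusted *P* = 0.534 in edgeR). Without rat 69 it was -1.47 with an adjusted *P* value of 0.0922 in edgeR, the smallest that any class II gene reached in any fit. The related beta chain RT1-Db2 had at most 1.27 CPM in a rat and was below the minimum of 30 counts in all rats.

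RT1-Ba, the alpha chain of RT1-B, followed the pattern of RT1-Da. It was at 25.1, 54.1 and 29.7 CPM in rats 61, 71 and 88 and at 13.2, 10.7 and 29.8 CPM in rats 64, 67 and 69. Between the diets the log2 fold change was -1.01 (SE 0.44, 95% interval -2.04 to 0.014, adjusted *P* = 0.473 in edgeR), and without rat 69 it was -1.61. The ratio of RT1-Ba to RT1-Da in TPM stayed between 0.518 and 0.706 in all 6 rats.

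RT1-Bb, the beta chain that pairs with RT1-Ba, did not follow its partner. It was at 50.4 CPM in rat 61 but at 7.48 in rat 71 and 4.57 in rat 88. With the HD diet it was at 49.7, 25.3 and 48.0 CPM in rats 64, 67 and 69. Rats 71 and 88 were the lowest in RT1-Bb, although rat 71 had the highest RT1-Ba, RT1-Da and RT1-Db1 of all rats and rat 88 was not the lowest in any of these. HD relative to AL gave a log2 fold change of 0.99 (SE 0.81, 95% interval -0.91 to 2.89, adjusted *P* = 0.735 in edgeR). Rat 61 drew this value toward 0, and it was 2.76 (adjusted *P* = 0.110 in edgeR) without that rat. It was 0.59 without rat 71, 0.52 without rat 88 and between 0.52 and 1.24 with any rat other than rat 61 left out.

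The ratio of beta to alpha chain within a rat shows the split without the level of class II as a whole. RT1-Bb relative to RT1-Ba in TPM was 1.46 in rat 61, 0.101 in rat 71, 0.111 in rat 88, 2.75 in rat 64, 1.72 in rat 67 and 1.17 in rat 69. The highest ratio was 27.3 times the lowest. For RT1-Db1 relative to RT1-Da the ratios lay between 0.736 and 1.20, a factor of 1.63 over the same rats. The DM chains had a smaller split in the same rats, with RT1-DMb relative to RT1-DMa at 1.55 in rat 71 and 1.25 in rat 88 and between 2.50 and 3.01 in the other 4 rats. These ratios are a description of single rats, which were not grouped or tested by them.

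**Figure D2:**
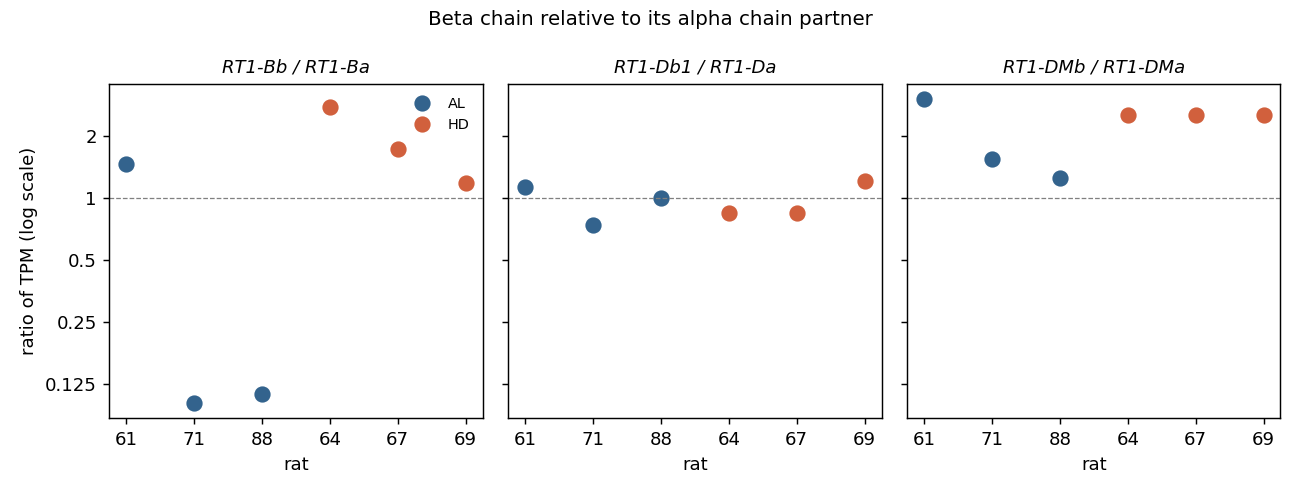
Ratio of the TPM of each beta chain to the TPM of its alpha chain (y axis, log scale) in each rat (x axis), with AL rats in blue and HD rats in orange. Rats 71 and 88 have RT1-Bb to RT1-Ba ratios of 0.101 and 0.111, while every RT1-Db1 to RT1-Da ratio lies between 0.736 and 1.20.

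Over the 6 rats, the log2 levels of the 7 genes other than RT1-Bb correlated with each other with Pearson's *r* between 0.31 and 0.99 over 21 pairs. RT1-Bb, set apart after the data were seen, correlated with these 7 genes with *r* between -0.56 and 0.52. The 0.52 was with RT1-DMb, which had lower *r* values with RT1-Ba (0.38), RT1-Da (0.31) and RT1-Db1 (0.44). The points are the same 6 libraries in each pair, so these values describe the libraries.

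For the genes of peptide loading and the invariant chain the estimated differences between the diets were small beside their intervals. RT1-DMa was at 6.27, 12.9 and 9.13 CPM in rats 61, 71 and 88 and at 6.79, 5.20 and 12.7 CPM in rats 64, 67 and 69. RT1-DMb was at 22.6, 23.9 and 13.6 CPM in the AL rats and at 20.4, 15.6 and 38.1 CPM in the HD rats. Rat 67 was lowest and rat 71 highest for RT1-DMa, whereas rat 69 was highest for RT1-DMb. The log2 fold changes were -0.19 (95% interval -1.12 to 0.73) and 0.30 (95% interval -0.53 to 1.14), with adjusted *P* values of 0.912 and 0.833 in edgeR.

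Cd74 was at 197, 292 and 193 CPM in the AL rats and at 187, 116 and 263 CPM in rats 64, 67 and 69. Rats 64 and 67 lay below the AL range and rat 69 within it. The mean was 227 ± 56.1 CPM (SD, *n* = 3) in AL and 189 ± 73.5 CPM (SD, *n* = 3) in HD. The difference was -0.27 on the log2 scale (SE 0.30, 95% interval -0.98 to 0.44, adjusted *P* = 0.822 in edgeR), so a difference of up to 0.98 on the log2 scale toward lower levels is within the interval.

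Ciita was the least abundant member, at 3.02, 4.27 and 2.45 CPM in rats 61, 71 and 88 and at 4.07, 1.499 and 3.52 CPM in rats 64, 67 and 69. Its groups overlapped throughout (log2 fold change -0.11, 95% interval -1.12 to 0.89, adjusted *P* = 0.963 in edgeR). Between 30 and 110 counts per rat stood behind these values. The files list 3 Ciita transcripts, each with 19 exons, that differ in the first exon, which starts the transcript from a promoter of its own. On the minus strand these exons lie at 4083602 to 4083966, 4076551 to 4076696 and 4075096 to 4075169 of chromosome 10. The division of counts among them was not stable at this depth. In rat 71 all 77 counts went to the exon nearest the gene body, whereas the posterior mean gave it 34.0 counts, the middle exon 31.8 and the far exon 11.2.

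Within a rat, RT1-Da was set against Cd74, so that the level of class II as a whole drops out. The log2 ratio of RT1-Da to Cd74, from CPM plus 0.5, was -2.16, -1.73 and -1.97 in rats 61, 71 and 88 and -2.92, -2.36 and -2.53 in rats 64, 67 and 69. Every HD rat was below every AL rat, and the difference of -0.65 had a two-sided exact permutation *P* value of 0.1, the smallest that 3 against 3 rats can give (0.15 adjusted over the 3 ratios tested). The difference ranged from -0.77 to -0.50 with each rat left out. The same order was seen, in TPM ratios chosen after the data were seen, for RT1-Ba to Cd74 (0.138 to 0.200 in AL, 0.0756 to 0.122 in HD) and RT1-Db1 to Cd74 (0.223 to 0.254 in AL, 0.111 to 0.208 in HD). RT1-Ba, RT1-Da and RT1-Db1 share Cd74 as the denominator, and their own log2 levels went together over the rats. Pearson's *r* was 0.99 for RT1-Ba with RT1-Da, 0.96 for RT1-Ba with RT1-Db1 and 0.93 for RT1-Da with RT1-Db1. The ratios of RT1-Ba and RT1-Db1 are therefore close to repeats of the ratio of RT1-Da and add little to it. The share of all genes whose ratio to Cd74 separates the diets was not computed. The ratios of RT1-Bb, RT1-DMa and RT1-DMb to Cd74 overlapped between the diets.

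The other genes of the pathway were taken from lists of 36 genes, of which 29 could be tested. An unadjusted *P* value below 0.05 was found for 5 of the 29 (4 lower and 1 higher in HD) beside 10.6% of all genes, and the adjusted *P* values of the 5 were all above 0.05. The 5 were 2 without rat 71 or rat 64 and 3 without rat 88. Among the enzymes, Ctss, which encodes the cathepsin S that trims the invariant chain, was at 13.5, 28.3 and 32.6 CPM in AL and at 9.76, 10.4 and 12.1 CPM in HD. No HD rat reached the lowest AL rat (log2 fold change -1.21, SE 0.31, adjusted *P* = 0.398 in edgeR and 0.0271 in DESeq2). Ctsl1, the lysosomal cathepsin L, had a difference of 0.48 on the log2 scale in the other direction (SE 0.18, edgeR adjusted *P* = 0.426). Of the antigen-processing list, 10 of 11 genes were tested, and the median log2 fold change was 0.17.

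For the DNA-bound partners of Ciita the estimates were small and all below 0. In Rfx5 every HD rat was below every AL rat (7.01% of all tested genes). The list summed to 166 to 176 CPM in AL and 146 to 161 CPM in HD. All 7 promoter factors (Rfx5, Rfxap, Rfxank, Nfya, Nfyb, Nfyc and Creb1) were tested, and their log2 fold changes ranged from -0.29 to -0.033. An unadjusted *P* value below 0.05 was found for 0 of 7, beside 10.6% of all genes. In the interferon gamma list, 2 of 7 tested genes were below this value, both lower in HD, beside 5.94% of all genes. These were Irf1, a transcription factor induced by interferon, with -0.62 (SE 0.21, adjusted *P* = 0.406 in edgeR), and the receptor chain Ifngr1 with -0.49 (SE 0.18, adjusted *P* = 0.409). Ifng itself had 0 counts in all 6 rats, which allows up to 0.0959 to 0.255 CPM in a rat by the limit of 3 counts, a limit for counting error only. Of 4 tested co-stimulation genes, 1 was below the value and lower in HD (5.94% of all genes), the adhesion gene Icam1, with 20.0 to 23.6 CPM in AL and 15.4 to 15.6 CPM in HD (log2 fold change -0.52, SE 0.13, adjusted *P* = 0.388 in edgeR). The further class II chains RT1-DOb, RT1-Db2 and RT1-Ha had too few counts to be tested, RT1-Hb was not matched, and RT1-DOa overlapped between the groups at 0.132 to 1.39 CPM.

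Of 45 markers of leukocytes as a whole, macrophages, dendritic cells, B cells and T cells, 32 were tested. An unadjusted *P* value below 0.05 was found for 19 of the 32, all lower in HD, beside 5.94% of all tested genes that were lower in HD at this value. In 11 of the 32 every HD rat was below every AL rat and in 1 above (7.01% and 7.25% of all genes). Adjusted *P* values were all above 0.05 in edgeR, whereas in DESeq2 those of 3 markers (Ptprc 0.0133, Aif1 0.0129 and Clec10a 0.0162) were below it, beside 1.58% of all genes. The median log2 fold change was -1.45. The count of 19 was 5 without rat 71, 11 without rat 67, 12 without rat 64 and 12 with a minimum of 10 counts in every rat. It comprised 5 of 8 pan-leukocyte, 7 of 11 macrophage, 2 of 6 dendritic cell, 0 of 1 B cell and 5 of 6 T cell markers.

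The summed level of the macrophage list was 66.3 to 188 CPM in AL and 47.2 to 81.0 CPM in HD, and that of the pan-leukocyte list 112 to 221 and 75.0 to 122 CPM. The T cell list summed to 9.13 to 35.3 CPM in AL and 2.97 to 7.48 CPM in HD, and the dendritic cell list to 11.04 to 28.3 and 4.67 to 10.8 CPM. Neither sum overlapped between the diets. Every HD rat was below every AL rat in 5 of 6 tested T cell markers but 1 of 6 dendritic cell markers (7.01% of all tested genes). The latter, Clec10a, made up 4.05 of the 11.04 CPM in rat 61 and 3.36 of the 10.8 CPM in rat 69. Without Clec10a the dendritic cell sum of rat 69 would not be below that of rat 61. The B cell list summed to 1.46 to 3.18 CPM in AL and 2.04 to 2.49 CPM in HD. Cd3e, a defining T cell gene, had 7, 34 and 8 counts in rats 61, 71 and 88 and 0, 0 and 6 in rats 64, 67 and 69. The 0 counts allow up to 0.255 CPM in rat 64 and 0.150 CPM in rat 67 by the limit of 3 counts. T cell transcripts were not absent there, with 4 and 3 counts of Cd3d and 1 and 7 of Cd3g in rats 64 and 67. Markers of other kidney cells were listed as well. Of 7 endothelial markers 6 had a log2 fold change below 0 (median -0.41), beside 5625 of the 11553 tested genes. The groups were apart in 0 of the 7, beside 14.3% of all tested genes. Only 1, Plvap, had an unadjusted *P* value below 0.05 (log2 fold change -1.98, edgeR adjusted *P* = 0.406), beside 5.94% of all genes lower in HD. This list summed to 169 to 474 CPM in AL and 99.5 to 339 CPM in HD. Of the 8 kidney epithelial markers 2 were below that value, both higher in HD beside 4.66% of all genes. These were Calb1 (log2 fold change 2.05, edgeR adjusted *P* = 0.379) and Slc34a1 (0.70, edgeR adjusted *P* = 0.406). In 3 of the 8 (these and Aqp1) every HD rat was above every AL rat, beside 7.25% of all tested genes. The epithelial list summed to 11750 to 12852 CPM in AL and 13625 to 14709 CPM in HD. The part of any of these cells in the class II levels was not tested.

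Class II RNA was therefore set against a leukocyte gene within each rat. Ptprc, which encodes the leukocyte surface protein CD45, was at 7.15, 17.3 and 9.33 CPM in AL and at 2.80, 3.25 and 4.96 CPM in HD. Ptprc had a log2 fold change of -1.61 (SE 0.39, adjusted *P* = 0.368 in edgeR and 0.0133 in DESeq2), against -0.27 for Cd74. In the same list the log2 fold changes were -0.028 for Itgb2 and 0.10 for Cd48, both with higher CPM than Ptprc in every rat, and the ratio of Cd74 to these was not computed. The log2 ratio of Cd74 to Ptprc was 4.69, 4.03 and 4.30 in rats 61, 71 and 88 and 5.83, 4.95 and 5.59 in rats 64, 67 and 69. Every HD rat was above every AL rat, with means of 4.34 ± 0.33 (SD, *n* = 3) in AL and 5.46 ± 0.45 (SD, *n* = 3) in HD (difference 1.12, two-sided exact permutation test, *P* = 0.1, the smallest the design allows, 0.15 adjusted).

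Against the macrophage gene Cd68 the ratio did not separate the diets. The log2 ratio of Cd74 to Cd68 was 6.51, 5.31 and 5.18 in the AL rats and 6.60, 6.01 and 6.27 in the HD rats, with a difference of 0.63 (two-sided exact permutation test, *P* = 0.3, and 0.3 adjusted). Rat 61 stood with the HD rats in this ratio.

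**Figure D3:**
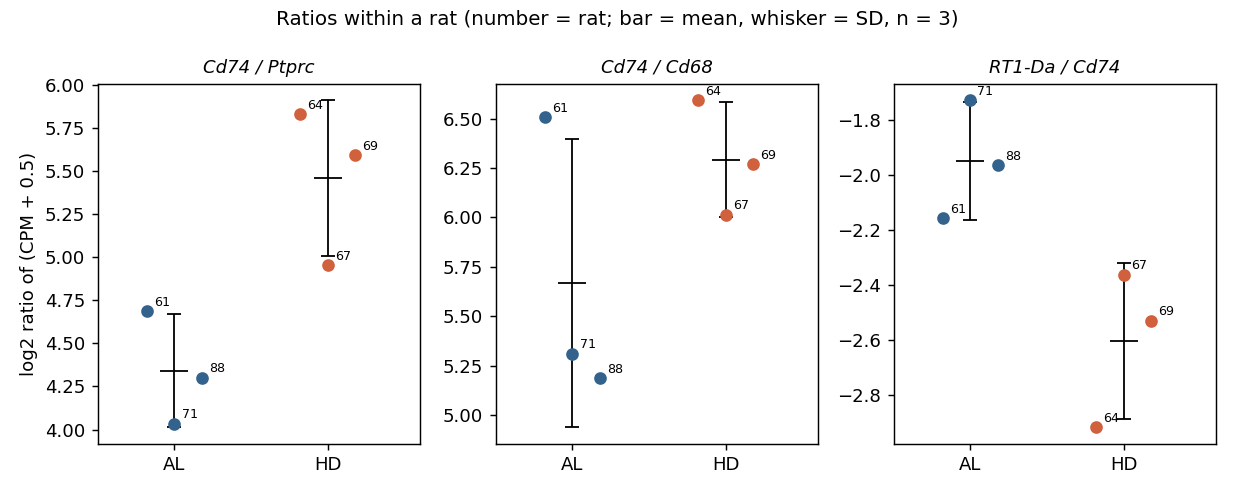
Log2 ratios within each rat (y axis, from CPM plus 0.5) of Cd74 to Ptprc, Cd74 to Cd68 and RT1-Da to Cd74 in the AL and HD groups (x axis). Points are rats with their numbers, bars are means and whiskers SDs; the groups do not overlap for Cd74 to Ptprc (difference 1.12) or RT1-Da to Cd74 (difference -0.65) and overlap for Cd74 to Cd68.

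**Figure D4:**
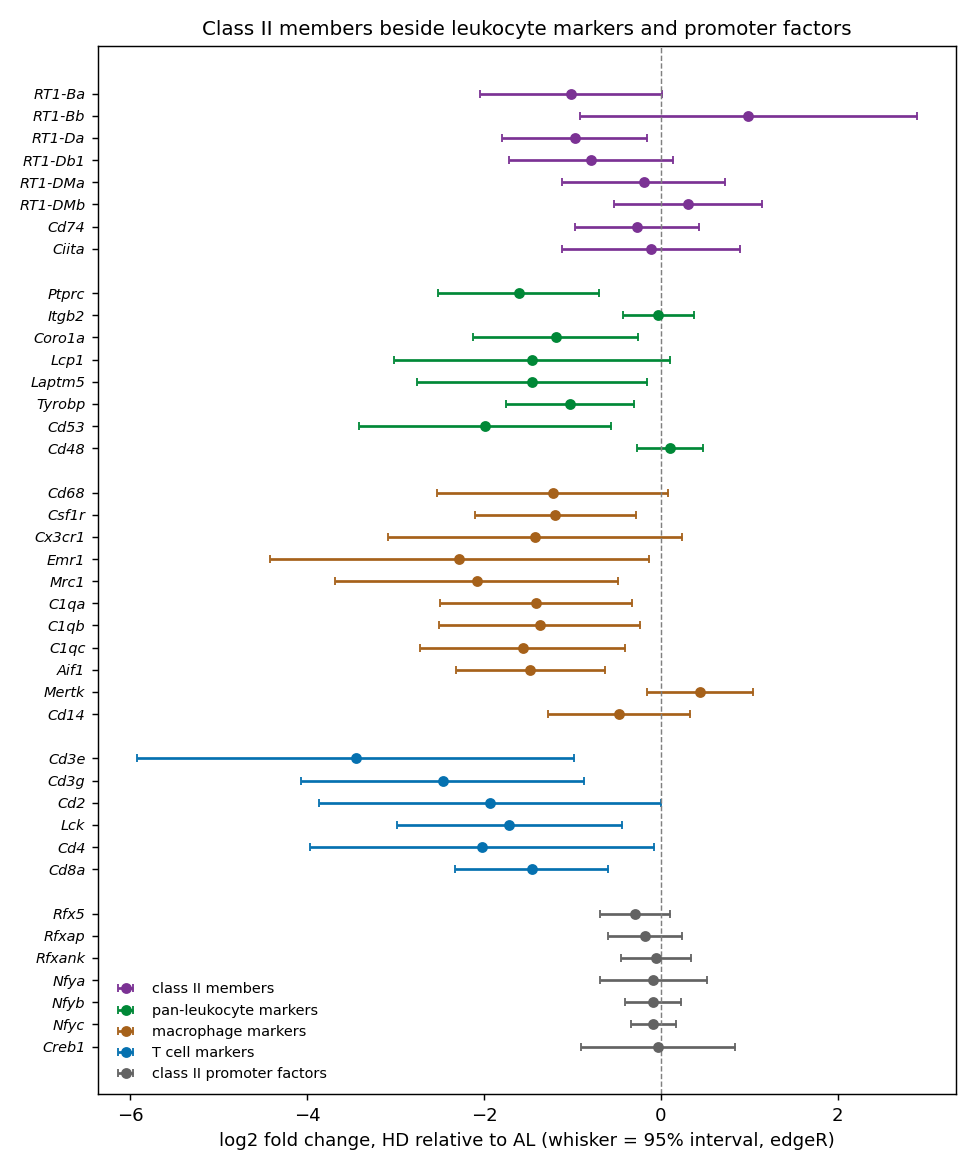
Log2 fold change of HD relative to AL from edgeR (x axis) with 95% intervals for the tested class II genes, pan-leukocyte, macrophage and T cell markers and class II promoter factors (y axis, Emr1 being the older symbol of Adgre1). The class II genes lie between -1.01 and 0.99, while the tested macrophage markers have a median of -1.41 and the promoter factors one of -0.085.

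For comparison, the class I pathway, which displays peptides from inside the cell, had 1 of 10 tested genes (Psmb8) with an unadjusted *P* value below 0.05, lower in HD, beside 5.94% of all genes, and a median log2 fold change of -0.16. The chains RT1-A1 and RT1-A2, which are also polymorphic, had log2 fold changes of 0.19 and 0.025. No test of the difference between the class I and class II lists was made.

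The genes whose pattern over the 6 rats was most like the mean of the 8 class II genes were ranked among 11264 genes with a mean of at least 1 CPM. The highest Pearson's *r* values were 0.99 for Trim16, 0.97 for Ptpn6, 0.97 for Anxa8, 0.97 for Traf7, 0.96 for Cntrob, 0.96 for Sppl2b, 0.96 for Vcl and 0.95 for Esrrg. With 6 rats and this many genes, the values are a description only. The mean of the centred log2 levels includes RT1-Bb. It was highest in rat 69 (0.51), then rat 71 (0.41), whereas rat 71 was highest in 6 of the 8 genes. The correlation does not use the size of the variation: Ptpn6 stayed between 34.4 and 36.7 CPM and Traf7 between 62.2 and 68.7 CPM. Trim16, the closest, was at 15.2, 16.4 and 11.4 CPM in rats 61, 71 and 88 and at 10.7, 7.49 and 18.5 CPM in rats 64, 67 and 69.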

How the data were processed

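Poly(A)-selected kidney RNA of 6 rats was sequenced by the authors as single-end 100 bp reads, 1 library per rat, and quantified with RSEM 1.1.15 at default parameters against gene definitions of build rn5. The authors deposited estimated counts (expected counts) per transcript, which are not normalized, and TPM values scaled by RSEM to length and library. Filters on reads were not given in the sources used here. Transcript counts were added up by gene and rounded to whole numbers, and a gene was tested if any rat reached 30 counts. The AL and HD groups, taken from the labelled diets, were compared with edgeR 4.0.16 in R 4.3.3 (quasi-likelihood test, TMM, Benjamini-Hochberg adjustment over all tested genes). Standard errors were the absolute log2 fold change divided by the square root of F. DESeq2 1.42.0, the tool of the study, was an alternative. The edgeR and DESeq2 fits were first tested on simulated data. Levels are TMM-normalized CPM, or TPM between genes. Ratios within a rat used a pseudocount of 0.5 CPM and two-sided exact permutation tests over 20 assignments, adjusted over 3 ratios (scipy 1.17.1). Rats of a group differed beyond sampling noise (chi-square per degree of freedom 22.6 to 74.6). Total counts lay between 12499945 and 30466461 per rat.

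The 8 members and the gene lists were chosen with earlier results of these data known. All members were named, with genes of the lists where a count was given, and the 8 genes most correlated with the members. Alternatives were other normalizations, filters, count estimates and dispersion fits, and leaving out each rat.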

Additional observations from a re-analysis of the deposited data

How the results depend on the processing

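With DESeq2, 182 genes passed the adjusted threshold and 3 class II genes had an unadjusted *P* value below 0.05, and without a filter on low counts these numbers were 2 and 2. Requiring 10 counts in every rat left 12 leukocyte markers below an unadjusted *P* value of 0.05. When rats were left out in turn, 0 to 4 genes passed the adjusted threshold and 606 to 1744 genes, 0 to 3 class II genes, 2 to 6 pathway genes and 5 to 24 leukocyte markers were below an unadjusted *P* value of 0.05. The median log2 fold change of the class II genes then lay between -0.62 and 0.025, and was -0.27 without RT1-Bb, a choice made after seeing the data. When rats were left out, the log2 fold change lay between -0.66 and 0.098 for RT1-DMa, -0.15 and 0.55 for RT1-DMb and -0.36 and 0.22 for Ciita. Its sign turned for RT1-DMa (0.098 without rat 71, 0.051 without rat 67), RT1-DMb (-0.15 without rat 69) and Ciita (0.15 without rat 71, 0.22 without rat 67), and the cause was not tested. In the other 99 of 104 refits, the class II genes kept their direction and stayed above the adjusted threshold. Under library size alone, posterior mean counts, TPM and pseudocounts of 0 and 2, the 3 ratios kept their direction and *P* values. No paired analysis was possible because the rat numbers are not shared between the groups. At 30 to 110 counts per rat, the division of Ciita among its first exons differed between the count estimates.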
